A study of Mus musculus with 12 samples.

Results

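A set of 10 genes of antioxidant defense and metal binding were followed in mouse liver during a fast-food diet (FFD). They are Nfe2l2, Nqo1, Gclc, Gclm, Hmox1, Txnrd1, Srxn1, Cat, Mt1 and Mt2, taken by name from the gene tables of every library, and all 10 are among the 54532 genes listed. The animals were male PPARγ flox/flox mice given 1 intraperitoneal injection at 8 weeks of age. PPARγ-KO mice received AAV8.TBG.PI.Cre.rBG, an adeno-associated virus carrying Cre recombinase under the hepatocyte-specific thyroxine-binding globulin promoter, and wild-type control littermates received AAV8.TBG.PI.eGFP.WPRE.bGH, so that both arms carried the floxed alleles and a virus. Both arms then ate the FFD, rich in saturated fat, cholesterol and sucrose with sugared drinking water, for 2 or 5 months. Bulk liver RNA was sequenced in 12 libraries, 3 in each of the 4 groups, and no group without the diet is included. The mice at 5 months were also older than those at 2 months, so time on diet and age cannot be told apart. Cre acts in hepatocytes alone, and the RNA came from whole liver.

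Nrf2, the protein of Nfe2l2, is a transcription factor held in the cytoplasm and sent to degradation by Keap1 until oxidants or electrophiles release it. In the nucleus it pairs with small Maf proteins, competes with the repressor Bach1 and binds antioxidant response elements, which drives genes for glutathione synthesis, the thioredoxin system and detoxification. Metallothioneins are small cysteine-rich proteins that bind zinc and copper, and in the liver their genes respond to metals through the factor Mtf1 and to glucocorticoids. Catalase, the peroxisomal enzyme that breaks down hydrogen peroxide, belongs to the peroxisome more than to the Nrf2 program.

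Total gene counts ran from 16367775 to 27452284 per library, and the levels below are CPM, counts scaled to the depth of each library with trimmed-mean (TMM) factors. Hepatocyte markers were present as the tissue label says, with 0 of 10 at 0 in any group and a summed level from 62570 to 95190 CPM. The gene meant to be deleted went against its label: Pparg had 37.3 to 41.1 CPM in wild-type and 50.3 to 66.3 CPM in KO libraries at 2 months, and 37.1 to 41.4 against 75.6 to 93.4 CPM at 5 months. A gene-level count does not separate the floxed exons from the rest, so the groups below are libraries labelled PPARγ-KO, and each direction rests on those labels. Some libraries stood apart in Nrf2 target genes. Replicate 1 of the wild-type group at 2 months had the lowest value of its group for 23 of 29 further Nrf2 target genes, where it was lowest for 37.8% of 13171 genes with a mean of at least 1 CPM. Likewise, PPARγ-KO replicate 1 at 5 months was lowest for 29 of 29, where it was lowest for 34.3% of 13169 genes. At 2 months PPARγ-KO replicate 3 was lowest for 17 of 29, where it was lowest for 33.3% of 13168 genes. Leaving out a library that is lowest for these genes raises its group's mean, so such fits show only dependence on it. Wild-type replicates 2 and 3 at 5 months were, by contrast, nearly alike: their counts differed by a chi-square of 2.51 per gene, where the other pairs within a group had 9.87 to 34.91. Sampling noise alone gives about 1, and they were kept as separate libraries. Whether they came from separate livers was not tested, and they narrow the wild-type spread behind the calls at 5 months.

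The promoters of 4 of the genes are shown as examples that carry the elements named above. RefSeq windows on GRCm38.p6, from 250 bases before to 50 after the start, were at hand for 8 of the 10 genes (Txnrd1 with 3 windows), and Gclc and Hmox1 had none. The antioxidant response element core was searched as TGACNNNGC on both strands, and capitals mark it in the promoters of Nfe2l2 (chr2:75704614-75704913, minus strand) and of Srxn1 (chr2:152105274-152105573, plus strand).
Nfe2l2: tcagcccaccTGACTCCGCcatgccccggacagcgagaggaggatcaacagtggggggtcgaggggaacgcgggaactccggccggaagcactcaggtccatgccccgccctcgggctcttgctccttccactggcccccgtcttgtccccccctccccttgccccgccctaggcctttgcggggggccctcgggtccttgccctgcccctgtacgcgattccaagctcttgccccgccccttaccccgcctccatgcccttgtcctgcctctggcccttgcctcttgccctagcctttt
Srxn1: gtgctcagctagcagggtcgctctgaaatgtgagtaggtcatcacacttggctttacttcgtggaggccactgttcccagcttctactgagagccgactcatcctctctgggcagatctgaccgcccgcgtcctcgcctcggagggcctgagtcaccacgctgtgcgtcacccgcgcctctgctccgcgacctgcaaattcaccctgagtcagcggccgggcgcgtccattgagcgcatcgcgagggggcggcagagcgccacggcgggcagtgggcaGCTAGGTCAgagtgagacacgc
The metal response element core was searched as TGCACNC or TGCGCNC on both strands, and capitals mark it in the promoters of Mt1 (chr8:94178839-94179138, plus strand) and of Mt2 (chr8:94172368-94172667, plus strand).
Mt1: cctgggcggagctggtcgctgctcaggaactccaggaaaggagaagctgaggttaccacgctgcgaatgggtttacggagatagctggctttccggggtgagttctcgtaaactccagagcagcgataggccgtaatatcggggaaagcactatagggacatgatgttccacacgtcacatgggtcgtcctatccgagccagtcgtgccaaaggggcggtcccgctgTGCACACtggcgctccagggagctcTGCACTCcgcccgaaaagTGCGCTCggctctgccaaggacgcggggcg
Mt2: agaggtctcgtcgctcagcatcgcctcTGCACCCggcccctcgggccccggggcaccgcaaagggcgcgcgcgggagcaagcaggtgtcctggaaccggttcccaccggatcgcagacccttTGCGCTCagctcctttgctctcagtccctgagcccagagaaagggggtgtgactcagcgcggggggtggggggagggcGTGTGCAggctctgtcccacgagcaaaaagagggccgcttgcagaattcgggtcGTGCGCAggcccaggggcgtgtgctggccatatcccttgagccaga
The antioxidant core was found once each in the windows of Nfe2l2, Gclm, Srxn1 and Mt2 and in 1 of the 3 windows of Txnrd1, but not in those of Nqo1, Cat and Mt1. Over all 32817 windows of this length, 12.4% held it. The metal core occurred 3 times in Mt1, 4 times in Mt2, 3 times in Gclm and once in Srxn1, against at least 1 match in 25.7% of all windows and at least 3 in 1.97%. In Gclm, 1 metal core overlaps the antioxidant core. These matches describe letters and say nothing of binding.

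The 10 genes differed widely in level. Per kilobase of exon and averaged over the 12 libraries, Cat stood first at 1083 CPM per kb, rank 40 of 13171 genes with a mean of at least 1 CPM. Gclc, the catalytic subunit of glutamate-cysteine ligase, the enzyme that starts glutathione synthesis, followed at 132 CPM per kb. Its range over libraries (98.6 to 165) touched neither Cat above nor Gclm below. Gclm, the modifier subunit of the same enzyme, had a level of 47.1 CPM per kb, and from there the library ranges of neighbors in the order overlapped: Srxn1 at 42.8, Mt1 at 34.8, Txnrd1 at 29.2, Nfe2l2 at 27.98, Hmox1 at 22.8 and Nqo1 at 10.9 CPM per kb. Mt2 came last at 2.43 CPM per kb, below the range of all others at 2 months. Its neighbor Mt1, on the same strand of chromosome 8, gave counts many times higher in every library.

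**Figure D1:**
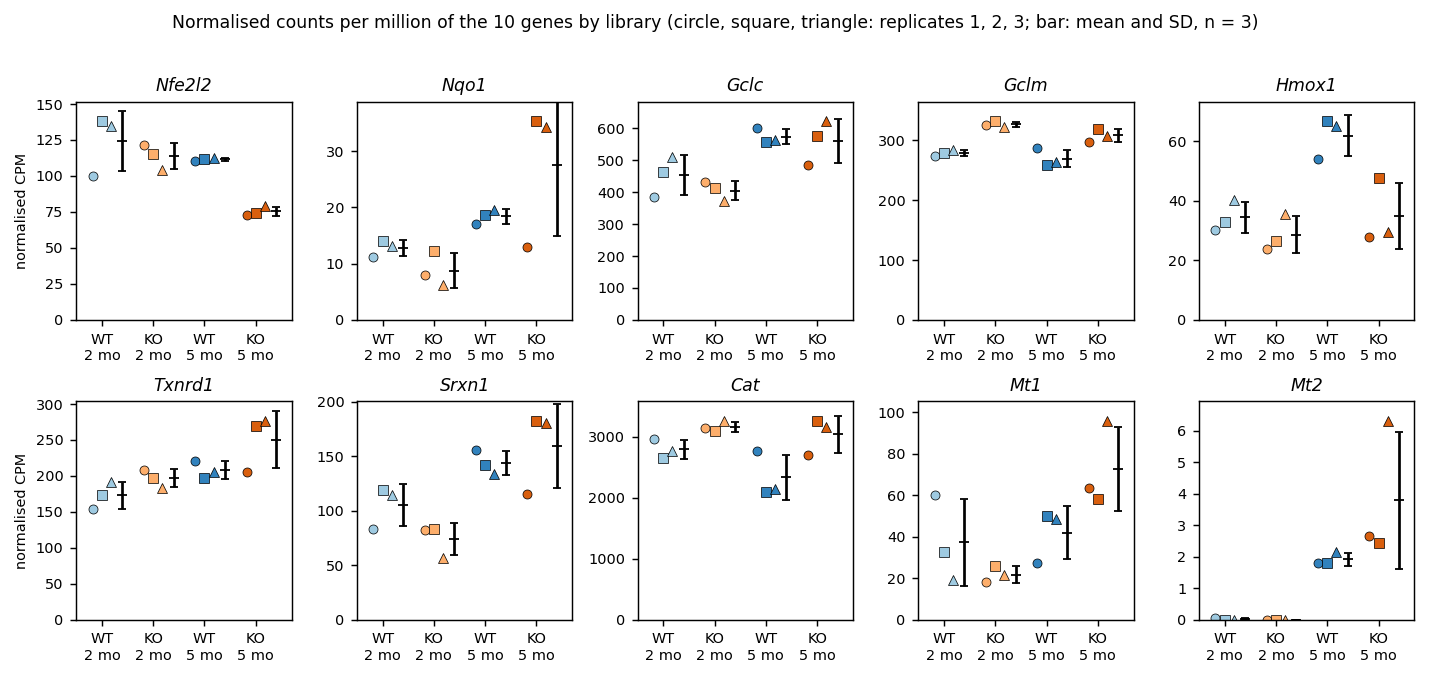
Normalised CPM of each gene (vertical axes, from 0) in the 4 groups of 3 libraries (horizontal axes); circles, squares and triangles are replicates 1, 2 and 3, and the bar is the mean with its SD. Nfe2l2 was lowest in the 3 PPARγ-KO libraries at 5 months (73.1 to 79.1 CPM), Hmox1 highest in the 3 wild-type libraries at 5 months (54.0 to 66.7 CPM), and Nqo1 split the PPARγ-KO libraries at 5 months into 13.0 and 34.2 to 35.3 CPM.

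After 2 months of FFD no gene of the set passed the threshold between the 2 genotype labels. The levels leaned both ways: Nqo1, a quinone reductase, and Srxn1, sulfiredoxin, which restores overoxidized peroxiredoxins, sat lower in KO-labelled libraries, and Gclm sat higher. With edgeR's quasi-likelihood test and Benjamini-Hochberg adjustment over all genes (called at an adjusted p under 0.05), 0 of 9 were called, where 1.78% of 14573 genes were called higher and 1.78% lower. Mt2 had too few counts to enter. At an unadjusted p under 0.05 there were 3 (Nqo1, Gclm and Srxn1), and DESeq2 called 1 of the genes, Srxn1 (adjusted p = 0.0458). Replicate numbers deviated together between the arms at this time, and with the replicate number as a block 817 rather than 519 of all genes were called, and still 0 of the 9.

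Gclm at 2 months had 275, 280 and 284 CPM in wild-type and 326, 332 and 322 CPM in KO-labelled libraries. The groups did not overlap, and the fold change was 1.16 (log2 0.22 ± 0.069 SE, edgeR adjusted p = 0.125), called in the fit of all 12 libraries (adjusted p = 0.0466). Srxn1 had 83.2, 119 and 114 CPM against 81.9, 83.4 and 56.6 CPM, and the groups overlapped through wild-type replicate 1 (log2 -0.52 ± 0.20, edgeR adjusted p = 0.229, and -0.66 with 0.0987 without that library). Nqo1 had 11.2, 14.0 and 13.1 CPM against 8.00, 12.2 and 6.15 CPM, again with overlap (log2 -0.56 ± 0.23, edgeR adjusted p = 0.238, and -0.65 with 0.210 without wild-type replicate 1). Over the 13 refits Srxn1 ran from a log2 of -0.66 to -0.35 and Nqo1 from -0.87 to -0.35. The largest adjusted p over these refits was 0.522 for Srxn1 and 0.532 for Nqo1. PPARγ-KO replicate 3 was the lowest of its group for both. Between same-numbered libraries Nqo1, Srxn1 and Hmox1 were each lower in the KO-labelled one in 3 of 3 pairs, and none was called with the replicate block (edgeR adjusted p = 0.0929, 0.304 and 0.100). Gclm and Cat were lower in 0 of 3 pairs. The labels state no pairing, and the share of all genes with 3 of 3 was not computed. Of the 29 further Nrf2 targets 0 were called higher and 2 lower at 2 months, and 8 lower without wild-type replicate 1. Groups without overlap were seen for 2 of the 9, Gclm and Cat, where 24.3% of all genes tested had none. For the others the 95% interval of the log2 difference bounds what these libraries could miss: -0.42 to 0.15 for Nfe2l2, -0.42 to 0.08 for Gclc, -0.65 to 0.11 for Hmox1, -0.04 to 0.38 for Txnrd1 and -0.03 to 0.37 for Cat. Mt1 was the least certain, from -1.99 to 0.41, with 60.3, 32.5 and 19.3 CPM in wild-type libraries and 17.96, 25.8 and 21.4 CPM in KO-labelled libraries.

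After 5 months, Nfe2l2 itself was 1.47-fold lower in KO-labelled libraries, while none of the other 9 genes was called lower. Of 10 genes tested, 2 were called higher (Gclm and Cat) and 1 lower (Nfe2l2), against 8.9% of 14138 genes called higher and 9.51% called lower. Library size alone, without the trimmed-mean scaling, moved the split of all genes from 1258 higher and 1344 lower to 889 and 1894 at 5 months, and from 259 and 260 to 171 and 349 at 2 months. Groups without overlap were seen for 5 of the 10 (Nfe2l2, Gclm, Hmox1, Mt1 and Mt2), where 34.8% of all genes tested had none. Among all genes 2602 were called, and 1601 without replicate 2 or 1593 without replicate 3 of the wild-type group. Of the members only the call of Nfe2l2 was left without replicate 2 or 3 of the wild-type group or replicate 3 of the KO-labelled group, and 5 calls were made without KO-labelled replicate 1.

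Nfe2l2 (chr2:75675513-75704641, minus strand, mm10), the regulator, had 110.4, 112 and 112 CPM in wild-type and 73.1, 74.5 and 79.1 CPM in KO-labelled libraries. The groups did not overlap, and wild-type replicates 2 and 3 are the nearly alike pair (log2 -0.55 ± 0.061 SE, edgeR adjusted p = 5.70e-05). It was called under each of the 13 refits tried, with log2 values from -0.62 to -0.53. Nfe2l2 is among the genes the study listed from these libraries, so its direction there is not separate evidence. The partners and inhibitors of Nrf2 did not pass the test except for Mafg, a small Maf protein, which was higher (log2 0.49 ± 0.081, edgeR adjusted p = 0.00113) as 1 of 9 listed regulators. Keap1 had a log2 difference of 0.14 (edgeR adjusted p = 0.186) and Bach1 of 0.13 (edgeR adjusted p = 0.276).

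Most endothelial markers, like those of some other cell types, were lower beside Nfe2l2 at 5 months, with 6 of 8 below 0 and 2 above. The 8 markers summed to 325 to 332 CPM in wild-type and 269.9 to 288 CPM in KO-labelled libraries at 5 months, with 4 of 8 called lower, 0 higher and none of the 8 at 0. Without wild-type replicate 2, PPARγ-KO replicate 1 or PPARγ-KO replicate 3, 2 were called lower. Over the 12 libraries, the gene whose log2 CPM followed Nfe2l2 most closely was Pecam1, an endothelial adhesion molecule (Pearson r = 0.96), ahead of Tle3 and Jak3 (r = 0.95 each). Macrophage markers (13 of 16 called lower) and stellate cell markers (5 of 10) were also lower at 5 months in KO-labelled libraries, with 0 called higher. The stellate count ran from 2 to 6 with 1 library left out. Erythroid markers had 1 of 5 called higher and cholangiocyte markers 1 of 5, with 0 called lower in either list with all 6 libraries. Over time in wild-type livers 4 of 8 endothelial markers were called lower and 1 higher, while Nfe2l2 was not called (log2 -0.17, edgeR adjusted p = 0.232). In whole liver, fewer cells of a type and less RNA per cell cannot be told apart, and the part of any of these cell types in the Nfe2l2 result was not tested.

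**Figure D2:**
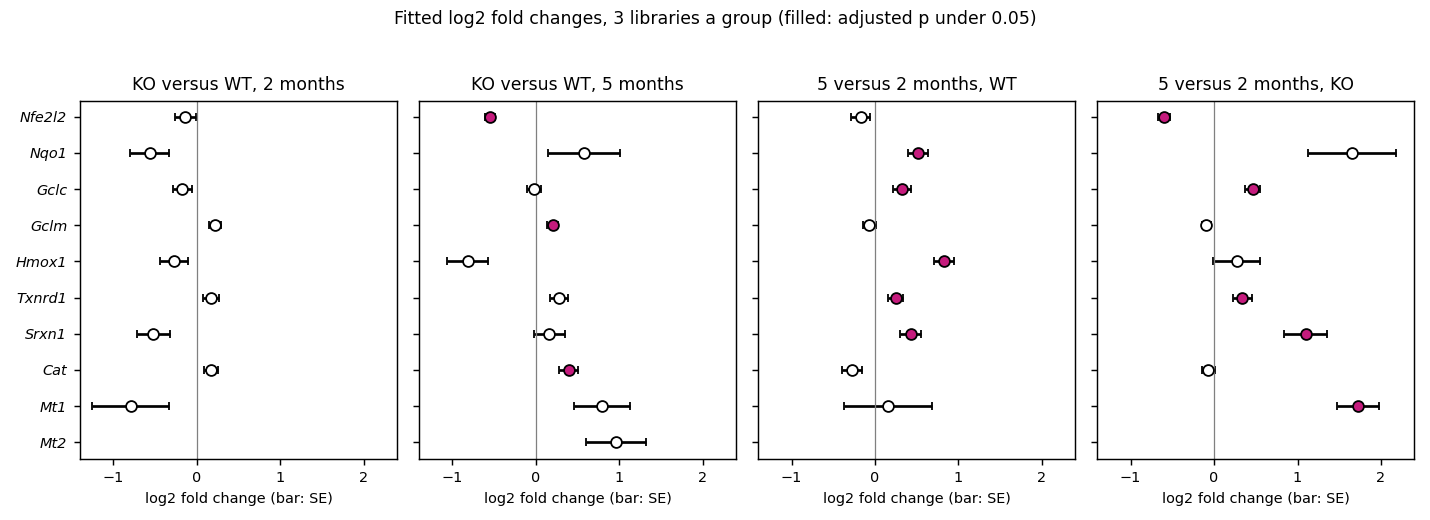
Fitted log2 fold change (horizontal axes) of each gene (rows) with its SE in the 4 comparisons of 3 against 3 libraries; filled points have an edgeR adjusted p under 0.05, and Mt2 is left out where one group had no or 1 count. No gene is filled at 2 months, Nfe2l2 is filled below 0 at 5 months (-0.55) and over time in KO-labelled libraries (-0.60), and the points for Nqo1, Srxn1 and Mt1 lie furthest to the right in the last panel (1.65, 1.098 and 1.73).

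The transcript ratio of the 2 subunits of glutathione synthesis differed a little between the genotype labels, in a test that could not call it. Gclm had 287, 259 and 264 CPM in wild-type and 298, 319.5 and 308 CPM in KO-labelled libraries at 5 months, the latter all higher (1.15-fold, log2 0.20 ± 0.065 SE, edgeR adjusted p = 0.0473). The call stood at the threshold and was lost in 9 of 13 refits, among them the edgeR fits without replicate 2 (adjusted p = 0.197) or 3 (0.162) of the wild-type group or replicate 1 (0.0636), 2 (0.142) or 3 (0.111) of the KO-labelled group. Gclm is also a gene that the study picked from these libraries, so its direction there is not separate evidence. Gclc had 601, 557 and 564 CPM against 486, 577 and 622 CPM, overlapping, with a 95% interval of the log2 difference from -0.21 to 0.17. The ratio of Gclc to Gclm per kb was 3.50, 3.60 and 3.57 in wild-type and 2.73, 3.02 and 3.37 in KO-labelled libraries, and at 2 months 2.35, 2.77 and 3.01 against 2.21, 2.08 and 1.93. The ratio was thus lower in every KO-labelled library at both times, by 0.52 at 5 months and 0.64 at 2 months on average, each with an exact two-sided permutation p of 0.1, the smallest that 3 against 3 allows. From 2 to 5 months it rose by more, 0.85 in wild-type and 0.97 in KO-labelled libraries, with the same permutation p of 0.1.

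The inducible enzymes Nqo1, Srxn1 and Txnrd1, the last a reductase of thioredoxin in the cytosol, divided the KO-labelled libraries at 5 months. Nqo1 had 17.0, 18.7 and 19.6 CPM in wild-type libraries and 13.0, 35.3 and 34.2 CPM in replicates 1, 2 and 3 of the KO-labelled group. Srxn1 had 155, 142 and 134 CPM against 115, 182 and 181 CPM, and Txnrd1 had 221, 196.5 and 206 CPM against 205, 270 and 276 CPM. In each of these genes replicates 2 and 3 lay above every wild-type library and replicate 1 below most or all of them.

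With all 6 libraries none of them was called (log2 0.58 ± 0.43 SE for Nqo1, 0.16 ± 0.19 for Srxn1 and 0.28 ± 0.10 for Txnrd1, with edgeR adjusted p = 0.462, 0.638 and 0.0893). Txnrd1 was called by DESeq2 (adjusted p = 0.0411) and by edgeR without a filter on low counts. Without PPARγ-KO replicate 1 all were called higher: Nqo1 with a log2 difference of 0.93 (edgeR adjusted p = 2.89e-05), Txnrd1 with 0.40 (0.00281) and Srxn1 with 0.35 (0.00831). As that library was the lowest of its group for each of these genes, the calls show dependence on it and are not separate support. Without that library Gclm was no longer called and Gclc turned from -0.02 to 0.07, neither called.

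Other Nrf2 targets divided the same libraries. The list of 29 further targets, which holds glutathione transferases, transporters of conjugates and enzymes that supply NADPH, summed to 8473, 13590 and 13060 CPM in replicates 1, 2 and 3 of the KO-labelled group at 5 months, and to 8771, 7934 and 7968 CPM in wild-type libraries. With all libraries 7 of 29 were called higher and 3 lower (median log2 0.27, against -0.01 for all genes), and without PPARγ-KO replicate 1 these were 17 and 2 (median 0.41). Other libraries mattered too: 3 were called higher without any 1 of the wild-type libraries, and 4 without PPARγ-KO replicate 2 or 3. Cyp2a5, a cytochrome P450, was higher (log2 2.06 ± 0.37, edgeR adjusted p = 0.0262), while Akr1b8, an aldo-keto reductase, was lower (log2 -0.79 ± 0.22, 0.0254) and so was Osgin1 (log2 -0.73 ± 0.093, 0.000232). In replicate 1 each of the 29 was below replicates 2 and 3, with a median log2 ratio to their mean of -0.38. This library had 22249141 counts, the most of its group, and its mitochondrial share of counts, 5.198%, lay between 4.71% and 5.30% in the others. Its macrophage marker sum (1000 CPM) and endothelial marker sum (269.9 CPM) were the lowest of the group, next to 1015 and 274.5 CPM in replicate 3, while its erythroid marker sum (600 CPM) lay between those of replicates 2 and 3. Its hepatocyte sum (95190 CPM, beside 86950 and 82830) was the highest of the group. So were its T and NK cell (8.44 CPM, beside 3.61 and 3.37), neutrophil (7.31 CPM) and B cell (45.6 CPM) sums. Its cholangiocyte sum (209.7 CPM) was the lowest.

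**Figure D3:**
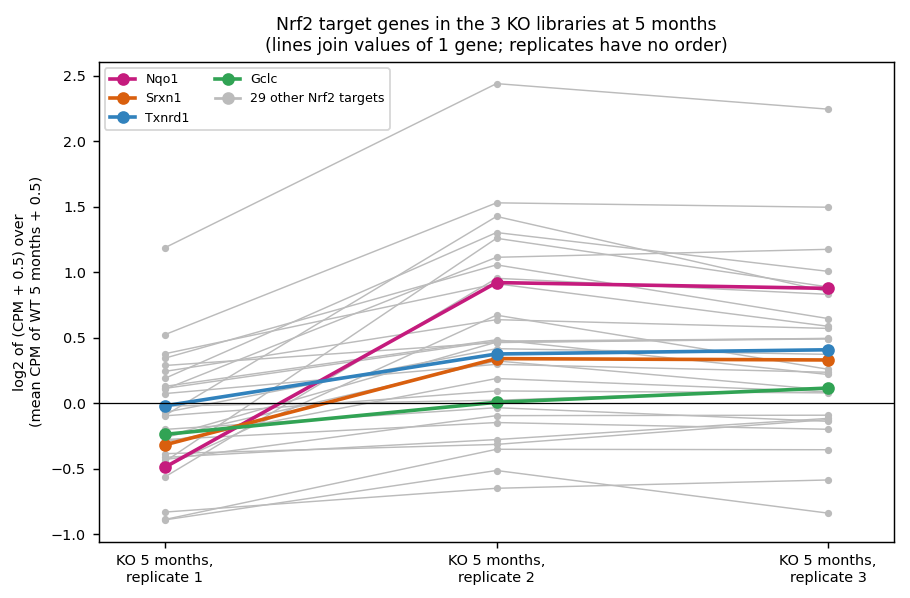
Log2 ratio of each KO-labelled library at 5 months to the wild-type mean at 5 months (vertical axis, 0.5 CPM added to both) for Nqo1, Srxn1, Txnrd1 and Gclc (colored) and the 29 further Nrf2 targets (grey); lines join the values of 1 gene, and replicates have no order. All 29 grey lines and the 4 colored lines are lowest in replicate 1.

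Hmox1, heme oxygenase-1, which opens the heme ring to release iron, carbon monoxide and biliverdin, sat lower in the KO-labelled group after 5 months without passing the test. It had 54.0, 66.7 and 65.1 CPM in wild-type and 27.7, 47.6 and 29.4 CPM in KO-labelled libraries. The groups did not overlap, and PPARγ-KO replicate 2 lay nearest to wild-type (1.76-fold lower, log2 -0.82 ± 0.24 SE, edgeR adjusted p = 0.0859). It was called without that replicate (log2 -1.11, adjusted p = 2.60e-05), in the fit of all 12 libraries (adjusted p = 0.042) and by DESeq2 (adjusted p = 0.0261), and its adjusted p ran from 2.60e-05 to 0.240 over the refits. Hmox1 is also among the genes the study listed from these libraries.

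Macrophage markers moved with Hmox1 between the groups at 5 months. Their sum was 1934, 2290 and 2284 CPM in wild-type and 1000, 1267 and 1015 CPM in KO-labelled libraries at 5 months, so the KO-labelled library with the most Hmox1 also had the highest sum. At 2 months the order within groups differed: the KO-labelled library with the least Hmox1 had the highest sum (785 CPM). Of 16 markers 13 were called lower and 0 higher, with a median log2 of -0.91, and none of the 16 was at 0 in any group. Subunits of the phagocyte NADPH oxidase fell too: Ncf4 by 1.08 (edgeR adjusted p = 0.0108) and Cyba by 0.90 (0.000125) on the log2 scale. Their list, enzymes that release peroxide or superoxide, had 7 of 17 genes called lower and 4 called higher (median log2 0.03). In the list for heme and iron storage, 6 of 12 were called lower and 0 higher (3 lower without wild-type replicate 3, and 4 lower with 1 higher without wild-type replicate 1 and 4 lower without PPARγ-KO replicate 3), led by Spic, a factor of heme-handling macrophages (log2 -1.41 ± 0.24, edgeR adjusted p = 0.00115), Hpx, the plasma heme carrier made by hepatocytes (-0.78 ± 0.10, 0.000236), and Cd163, the hemoglobin scavenger receptor (-0.70 ± 0.21, 0.0446). At 2 months Cd163 lay the other way, at 14.4, 11.4 and 14.4 CPM in wild-type and 24.6, 24.1 and 29.9 CPM in KO-labelled libraries. Of the 12 genes of that list 1 was called higher and 1 lower at 2 months. Over the 12 libraries the genes that followed Hmox1 most closely were S100a6 (r = 0.95), Lsp1 (r = 0.94) and Gpr137b-ps (r = 0.93). The part of macrophages in the Hmox1 result was not tested.

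**Figure D4:**
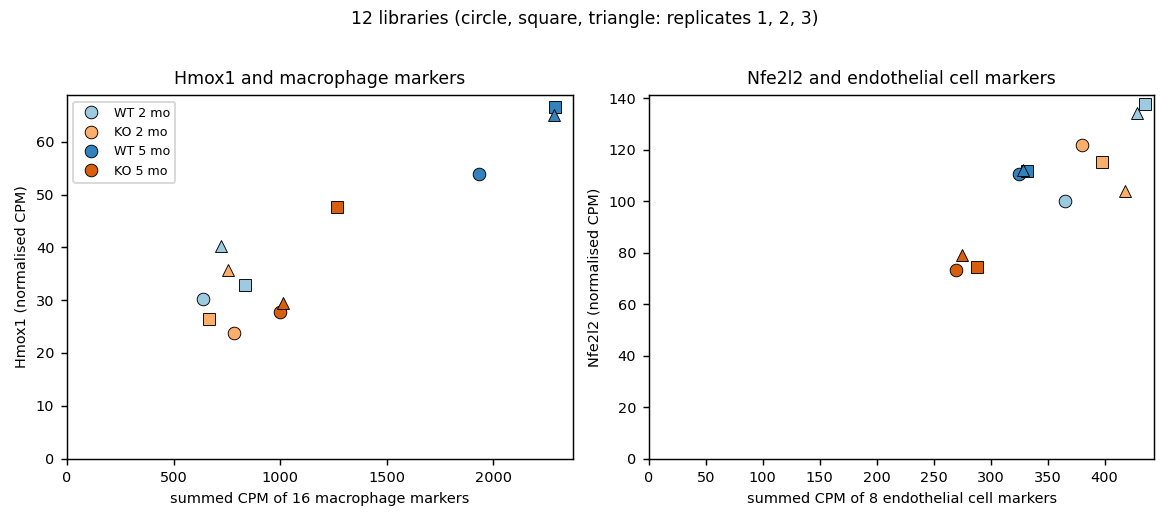
Left, Hmox1 (CPM) against the summed CPM of 16 macrophage markers; right, Nfe2l2 (CPM) against the summed CPM of 8 endothelial markers, each in the 12 libraries, with symbols for replicates 1, 2 and 3. The 3 wild-type libraries at 5 months lie at the upper right for Hmox1 (1934 to 2290 CPM of markers), and the 3 KO-labelled libraries at 5 months lie lowest on both axes for Nfe2l2 (269.9 to 288 CPM of markers).

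Cat, catalase (chr2:103453849-103485160, minus strand), was called higher in KO-labelled libraries at 5 months, by 1.31-fold. It had 2762, 2100 and 2136 CPM in wild-type and 2696, 3248 and 3165 CPM in KO-labelled libraries. Wild-type replicate 1 exceeded PPARγ-KO replicate 1, so the groups overlapped (log2 0.39 ± 0.11 SE, edgeR adjusted p = 0.0267). The call was lost in the edgeR fits without replicate 2 (adjusted p = 0.130) or 3 (0.120) of the wild-type group or replicate 2 (0.0915) or 3 (0.0996) of the KO-labelled group. Of 10 hepatocyte markers 2 were called higher (Alb and Tat) and 1 lower (Cyp3a11) at 5 months. Without Alb the others summed to 30250 to 32640 CPM in KO-labelled and 31980 to 33130 CPM in wild-type libraries at 5 months, and to 26810 to 31430 and 21200 to 25350 CPM at 2 months, and their part in the Cat values was not tested. At 2 months Cat had 2958, 2657 and 2758 CPM against 3136, 3096 and 3252 CPM, higher in each KO-labelled library but not called (log2 0.17, edgeR adjusted p = 0.346). For 16 genes of peroxisome biogenesis the median log2 difference at 5 months was -0.00364, beside -0.00577 for all genes. Over the 12 libraries Cat was followed most closely by Aldh9a1 (r = 0.95), Cyb5b (r = 0.94) and Nadk2 (r = 0.93).

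The metallothioneins lay higher in KO-labelled libraries at 5 months without passing the test. Mt1 (chr8:94179082-94180327, plus strand) had 27.2, 50.03 and 48.5 CPM in wild-type and 63.6, 58.0 and 95.6 CPM in KO-labelled libraries. The groups did not overlap, though the spread in both was wide (1.73-fold, log2 0.79 ± 0.34 SE, edgeR adjusted p = 0.214), and none of the 13 refits called it. Mt2 (chr8:94172664-94173568, plus strand) had 30, 31 and 41 counts against 56, 47 and 99 counts. The PPARγ-KO counts were all higher (log2 0.96 ± 0.36, edgeR adjusted p = 0.0928), and DESeq2 called the gene (adjusted p = 0.0394), as did the fit without PPARγ-KO replicate 2 (adjusted p = 0.0377).

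Mt2 counts carry a limit of their own. Mt2 shares 432 of its 588 exon bases with the antisense gene Gm45774 (chr8:94170748-94173412, minus strand) in GENCODE M21, whose coordinates for the 10 genes equal those in the files, and 156 bases are left. Gm45774 itself had 0 to 6 counts per library. Whether reads were counted by strand is not given in the sources used here, and without strand the reads of the pair cannot be told apart, so the level of Mt2 beside Mt1 (at most 6.58% of its counts in any library) is uncertain.

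Genes of metal handling and glucocorticoid response were read beside Mt1. Among all genes tested at 5 months 8.9% were called higher and 9.51% lower. Mtf1, the metal-sensing factor of the metallothionein genes, had a log2 difference of 0.21 at 5 months (edgeR adjusted p = 0.122). Of 22 tested genes of zinc and copper handling 3 were called higher and 0 lower: Slc39a14, a zinc importer (log2 0.51 ± 0.061, edgeR adjusted p = 0.000117), Atp7b, a copper pump (0.42 ± 0.069, 0.00104), and Slc39a4 (0.40 ± 0.089, 0.00779). Of 12 genes of glucocorticoid response 7 were called higher and 3 lower, among them Zbtb16 (log2 3.45 ± 0.12, edgeR adjusted p = 6.76e-08) and Fkbp5 (2.54 ± 0.10, 9.20e-08), both strongly induced by glucocorticoids, and Lcn2, an acute-phase gene, which was lower (-1.36 ± 0.25, 0.0229). The 3 lower calls became 2 without wild-type replicate 1 or PPARγ-KO replicate 2, 1 without wild-type replicate 2, PPARγ-KO replicate 1 or replicate 3, and 0 without wild-type replicate 3, while 6 or 7 were called higher. At 2 months 0 of the 12 glucocorticoid genes were called, with 9 above 0 and 3 below (median log2 0.36), while Mt1 lay lower (log2 -0.79, not called). Slc39a14 at 2 months had 218, 202 and 211 CPM in wild-type and 274, 288 and 311 CPM in KO-labelled libraries. Of the 22 zinc and copper genes 1 was called higher and 1 lower at 2 months. The part of any of these genes in the Mt1 values was not tested.

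**Figure D5:**
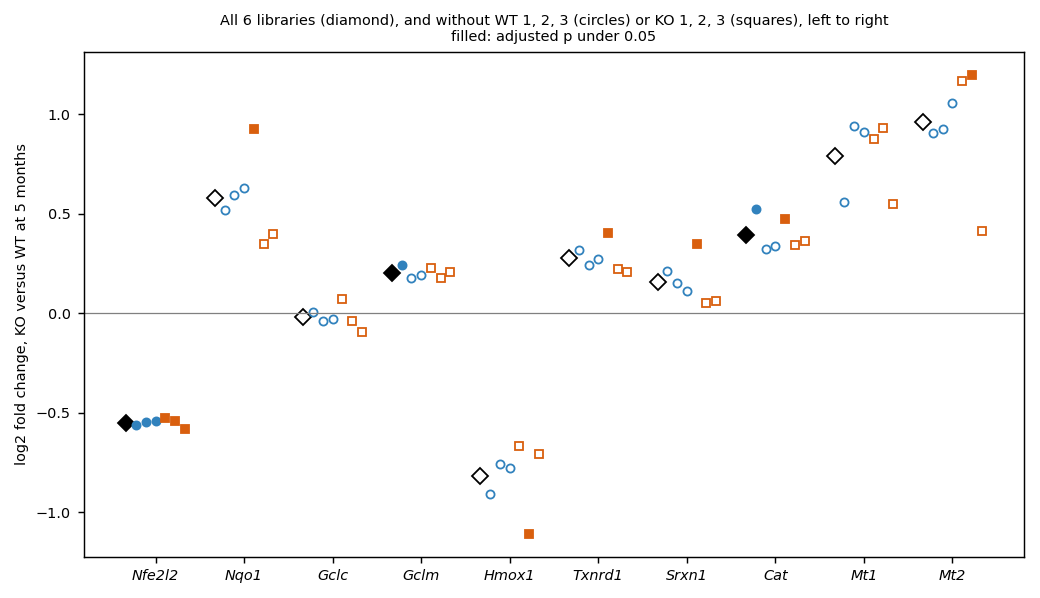
Log2 fold change of KO-labelled against wild-type libraries at 5 months (vertical axis) for each gene with all 6 libraries (diamond) and with 1 library left out (circles, wild-type replicates 1 to 3; squares, PPARγ-KO replicates 1 to 3), filled where the edgeR adjusted p was under 0.05. Nfe2l2 is filled throughout (about its value of -0.55), and Nqo1 and Srxn1 are filled only where PPARγ-KO replicate 1 is left out (0.93 and 0.35).

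Between 2 and 5 months of FFD, transcripts of 5 antioxidant enzymes of the set rose in wild-type livers. Hmox1 rose 1.78-fold, Nqo1 1.43-fold, Srxn1 1.35-fold, Gclc 1.25-fold and Txnrd1 1.19-fold. Mt2, nearly uncounted at 2 months, is given apart. In edgeR's test 5 of the other 9 were called higher and 0 lower, where 23.8% of 14491 genes were called higher and 22.7% lower. Groups without overlap were seen for 5 of these 9, where 56.8% of all genes had none. The count of 5 fell to 2 without wild-type replicate 1 at 5 months, and to 3 without replicate 2 at either time or replicate 3 at 5 months.

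Hmox1 went from 30.2, 32.9 and 40.2 CPM at 2 months to 54.0, 66.7 and 65.1 CPM at 5 months, and each later library was higher (log2 0.83 ± 0.12 SE, edgeR adjusted p = 0.000425, called in each of 13 refits). Macrophage markers rose with it, 15 of 16 called higher with a median log2 of 1.59, from a sum of 639 to 838 CPM to 1934 to 2290 CPM. Nqo1 went from 11.2, 14.0 and 13.1 to 17.0, 18.7 and 19.6 CPM without overlap (log2 0.51 ± 0.12, edgeR adjusted p = 0.00459), a call lost in the fit of all 12 libraries, which takes in the split PPARγ-KO group (0.285). Srxn1 rose by a log2 of 0.43 ± 0.13 (edgeR adjusted p = 0.0186), lost without wild-type replicate 1 at 5 months (0.0702), with library size alone (0.0927) and in the fit of all 12 libraries (0.128).

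Gclc rose in wild-type livers by a log2 of 0.32 ± 0.11 (edgeR adjusted p = 0.028). Its call was lost without wild-type replicate 2 at 2 months (0.0554), or replicate 1 (0.0664), 2 (0.061) or 3 (0.0707) at 5 months. Txnrd1 rose by a log2 of 0.25 ± 0.092 (edgeR adjusted p = 0.0455), and the call was lost without replicate 1 (0.0967) or 2 (0.0965) at 2 months or replicate 1 (0.111), 2 (0.0633) or 3 (0.104) at 5 months. Nfe2l2 had a log2 difference of -0.17 (edgeR adjusted p = 0.232) and was called lower once replicate 1 of the 2-month group was left out (-0.30, adjusted p = 0.00367). Cat had -0.28 ± 0.12 (edgeR adjusted p = 0.0796), called without wild-type replicate 1 at 5 months (-0.40, adjusted p = 0.0106). Gclm had -0.07 (95% interval -0.23 to 0.10), and Mt1, whose 2-month libraries ran from 19.3 to 60.3 CPM, had 0.15 (edgeR adjusted p = 0.838).

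In libraries labelled PPARγ-KO the same span brought higher Mt1 and Srxn1 and lower Nfe2l2. With Mt2 again apart, 4 of 9 genes were called higher (Gclc, Txnrd1, Srxn1 and Mt1) and 1 lower (Nfe2l2), where 22.7% of 14478 genes were called higher and 22.2% lower. Groups without overlap were seen for 6 of these 9, where 55.6% of all genes had none. The count of 4 fell to 2 without PPARγ-KO replicate 2 at either time or replicate 3 at 5 months. The 5-month libraries are those of the genotype comparison, so the 2 results share them.

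Mt1 went from 17.96, 25.8 and 21.4 CPM to 63.6, 58.0 and 95.6 CPM, 3.31-fold higher with every later library above every earlier one (log2 1.73 ± 0.25 SE, edgeR adjusted p = 0.00357, called in each of 13 refits). Nfe2l2 went from 122, 115 and 104 CPM to 73.1, 74.5 and 79.1 CPM, 1.51-fold lower (log2 -0.60 ± 0.071, edgeR adjusted p = 6.27e-05), also called in each refit. Endothelial markers fell beside it, 6 of 8 called lower and 1 higher, from a sum of 380 to 418 CPM to 269.9 to 288 CPM. Gclc rose from 431.5, 412 and 371 CPM to 486, 577 and 622 CPM (log2 0.46 ± 0.092, edgeR adjusted p = 0.00247), called in each refit as well. Srxn1 rose 2.14-fold, from 81.9, 83.4 and 56.6 CPM to 115, 182 and 181 CPM (log2 1.098 ± 0.26, edgeR adjusted p = 0.025).

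The Srxn1 call was lost in the edgeR fits without PPARγ-KO replicate 1 (adjusted p = 0.0568) or 2 (0.0567) at 2 months or replicate 2 (0.0737) or 3 (0.0765) at 5 months. Txnrd1 rose by a log2 of 0.34 ± 0.11 (edgeR adjusted p = 0.0387), lost without replicate 2 (0.0879) or 3 (0.116) at 2 months or replicate 2 (0.119) or 3 (0.106) at 5 months. Nqo1 went from 8.00, 12.2 and 6.15 CPM to 13.0, 35.3 and 34.2 CPM. Every later library was higher, yet the spread at 5 months kept it above the threshold (log2 1.65 ± 0.52, edgeR adjusted p = 0.0631), and without PPARγ-KO replicate 1 at 5 months it was called (2.00, adjusted p = 0.00366), as it was by DESeq2 (0.00561). Hmox1, which rose in wild-type livers, had a log2 difference of 0.27 (95% interval -0.45 to 0.99), and Gclm and Cat had -0.09 and -0.07, none called. Macrophage markers rose over the same span, with 9 of 16 called higher and 2 lower (median log2 0.66), while Hmox1 was not called. The marker sum went from 665 to 785 CPM at 2 months to 1000 to 1267 CPM at 5 months.

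Mt2 was nearly uncounted at 2 months and counted at 5 months in both arms. Wild-type libraries had 1, 0 and 0 counts at 2 months and 30, 31 and 41 at 5 months, a ratio of 111 per unit of scaled depth with a 95% interval of 19.6 to 4444, for counting error alone. KO-labelled libraries had 0 counts in all 3 libraries at 2 months and 56, 47 and 99 at 5 months, at least 76.2-fold higher against a floor of 3 counts over the group. Mt1 did not share this jump in wild-type libraries. Time, age and any difference in library preparation between the 2 times cannot be told apart here.

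Further genes of the antioxidant systems rose over time in both arms. Of 18 tested genes of the glutathione system 12 were called higher and 1 lower in wild-type, with Chac1, which degrades glutathione, at a log2 of 1.71 ± 0.45 (edgeR adjusted p = 0.0162) and Gpx3, the plasma glutathione peroxidase, at a log2 of 1.11 ± 0.19 (edgeR adjusted p = 0.00125), and 14 of 17 were higher in KO-labelled libraries, with Mgst3 at 1.33 ± 0.22 (0.00263) and Gpx4, which reduces lipid peroxides, at 1.11 ± 0.067 (1.097e-06). Prdx5, a peroxiredoxin, rose by 1.06 ± 0.085 in wild-type and 1.07 ± 0.069 in KO-labelled libraries, and Txn1, thioredoxin, by 0.91 ± 0.072 and 0.93 ± 0.059 (log2 scale). Of 4 superoxide dismutase genes 3 were called higher in each arm (Ccs, Sod3 and Sod1). Among regulators, Bach1 was called lower in wild-type (-0.38, edgeR adjusted p = 0.0044) and in KO-labelled libraries (-0.32, 0.00657), and Keap1 was called higher in the latter (0.26, 0.00679). Of the further Nrf2 targets 8 of 29 were called higher and 6 lower in wild-type, led by Me1 (-1.20), Abcc2 (-1.17) and Cyp2a5 (-1.14), with a median of 0.27 that was 0.11 without wild-type replicate 1 at 2 months (11 higher and 8 lower). In KO-labelled libraries 15 of 28 were called higher and 1 lower, led by Cbr3 (4.04), Gsta1 (3.12) and Gsta2 (2.13). Without PPARγ-KO replicate 1 at 5 months, the lowest of its group for these targets, the latter count was 22 of 29 higher. Among all genes tested 23.8% were called higher and 22.7% lower in wild-type, and 22.7% and 22.2% in KO-labelled libraries.

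The difference between the genotype effects at 5 and 2 months was tested directly over the 12 libraries. It was called for 0 of 10 genes by edgeR and for 0 by DESeq2, where 0.661% of 15127 genes were called higher and 0.912% lower, and for 2 genes the unadjusted p was under 0.05. These were Mt1, with a log2 difference of 1.57 ± 0.60 SE (edgeR adjusted p = 0.27), and Nfe2l2, with -0.43 ± 0.14 (edgeR adjusted p = 0.152). Nqo1 had 1.14 ± 0.53 (edgeR adjusted p = 0.36) and was called without PPARγ-KO replicate 1 at 5 months (1.48, adjusted p = 0.0233). Of the 29 further Nrf2 targets 1 was called higher, Abcc2, an exporter of conjugates (0.49 ± 0.12, edgeR adjusted p = 0.0474). Counts for that list were 9 without PPARγ-KO replicate 1 at 5 months and 6 without wild-type replicate 1 at 2 months, and 0 without any other library. That Nfe2l2, Gclm and Cat passed the test at 5 months alone therefore does not show that their genotype effects differ between the times.

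Patterns over the 12 libraries set the genes into groups, as a description that the shared conditions and libraries shape. Nqo1 and Srxn1 both had Gstm3, a glutathione transferase, as their closest gene (Pearson r of log2 CPM = 0.97 for each), and were close to each other (r = 0.94). Srxn1 was also close to Gclc (r = 0.95), Scd2 (r = 0.97) and Gsta1 (r = 0.97). Txnrd1 was followed by Gstp1 (r = 0.95), Gstm4 (r = 0.92) and Rdh10 (r = 0.92). Gclc was also followed by Net1 (r = 0.96) and Rpp30 (r = 0.95), and Nqo1 by Gstm2-ps1 (r = 0.95), a pseudogene whose reads may be shared with its relatives. Gclm kept apart from the other Nrf2 targets, with Tmem86b (r = 0.97), Crkl (r = 0.96) and Dhrs1 (r = 0.95), and its correlation with Nqo1 was -0.20. Mt1 was followed by Appl1 (r = 0.94), Tmem220 (r = 0.91) and Gm9774 (r = 0.88), and Mt2, with its jump in time, by Lars2, Ergic3 and Tmx1 (r = 0.99 each). Nfe2l2 had a correlation of -0.48 with Nqo1 and -0.74 with Mt1.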

How the data were processed

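Liver RNA was sequenced on an Illumina NovaSeq in 12 libraries, 3 per genotype label and time on FFD. The authors deposited raw gene counts per library, not normalized, on mm10. The study's methods name STAR as aligner and the submitters' processing notes name HISAT2. The counting tool, annotation version and use of strand are not given in the sources used here. Whether the libraries of a group came from separate mice is given only as repeats, so p-values measure the spread between these samples.

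Counts were tested with edgeR 4.0.16 (R 4.3.3; TMM scaling, filterByExpr, robust quasi-likelihood F-test) within each pair of groups, and over all 12 libraries for the difference of genotype effects. Benjamini-Hochberg adjustment ran over all genes tested, and genes were called at an adjusted p under 0.05. The SE is the log2 fold change divided by the square root of F. DESeq2 1.42.0, other scalings and filters, a replicate block and leaving out each library were alternatives; leaving out libraries for list counts, Mt2 for member counts over time and Alb for the hepatocyte sum was chosen after seeing the data. The test was checked on simulated data. The members and lists were chosen with earlier results of these data known. All 10 members were named, with up to 3 called genes of largest change per list and comparison, Keap1, Bach1 and Mtf1, and the 3 genes of highest Pearson r over the 12 libraries (log2 CPM, prior count 2, mean of at least 1 CPM). Some listed genes that this rule would name are not reported here.

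Same-numbered libraries deviated together between genotypes at 2 months (r = 0.22, 0.32 and 0.14 over the 5000 most expressed genes), so the blocked counts are given beside that comparison, while its folds, errors and p-values come from the fit without the block. The labels state no pairing. At 2 months each same-numbered r also lay above those of the same libraries with other numbers. The other comparisons did not meet this for every pair. Over time in wild-type the same-numbered r were 0.24, 0.18 and 0.019, beside 0.27 between replicate 3 at 5 months and replicate 2 at 2 months. Depth ran from 16367775 to 27452284 counts, and 3 counts, taken as the floor, stand for 0.109 to 0.183 CPM. Counting intervals cover counting error only. Promoter windows came from RefSeq (GRCm38.p6) and exon overlaps from GENCODE M21.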

Additional observations from a re-analysis of the deposited data

How the results depend on the processing

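At 2 months 519 genes were called, and 988 with DESeq2, 1562 with no filter on low counts, 817 with the replicate block, 1153 in the fit of all 12 libraries, 1608 by an unadjusted p under 0.05 with a 1.3-fold change, and 117 to 1577 when 1 library was left out. Of the members 0 were called there, and 1 with DESeq2, 2 with no filter, 1 with all 12 libraries and 2 by the unadjusted rule, but 0 in each fit leaving out 1 library. At 5 months 2602 genes were called, and 1593 to 3078 when 1 library was left out (1601 without wild-type replicate 2, 1593 without wild-type replicate 3), and the 3 members became 6 with DESeq2 and 1 to 5 when 1 library was left out. For the difference of genotype effects 238 genes were called, and 565 with DESeq2, 793 with no filter, 1563 by the unadjusted rule and 83 to 567 when 1 library was left out, with members at 0, then 1 with no filter, 2 by the unadjusted rule and 0 to 1 when 1 library was left out. The counts of all genes in the time comparisons stayed within 1.5 times in every alternative run. Without Mt2, members called higher over time numbered 5 and ranged from 2 to 5 in wild-type (2 with library size alone and with all 12 libraries) and numbered 4 and ranged from 2 to 5 in KO-labelled libraries (2 with the replicate block). Small differences changed sign when 1 library was left out: Gclc at 5 months (log2 -0.096 to 0.073), Mt1 over time in wild-type (-0.16 to 0.68), Hmox1 and Cat over time in KO-labelled libraries (-0.017 to 0.47 and -0.11 to 0.015) and Gclm in the difference of effects (-0.052 to 0.018). Replicate numbers did not pair the samples at 5 months or over time. With the replicate block, Hmox1 (edgeR adjusted p = 0.00181) and Mt2 (0.0449) were called at 5 months and Gclm (0.0979) and Cat (0.0552) were not, Cat was called over time in wild-type (0.0294), and Txnrd1 (0.0693) and Srxn1 (0.0501) were not over time in KO-labelled libraries. The cause of these shifts was not tested. Mt2 at 2 months lies at or under the floor of 3 counts, so no genotype difference was detectable there at this depth.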

Other observations

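Other antioxidant lists differed between the genotype labels in a few genes each, and most of these calls depended on single libraries. At 5 months 4 of 18 glutathione genes were called lower and 1 higher in KO-labelled libraries, among them Mgst3 (log2 -0.61), Gpx1 (-0.56) and Glrx (0.54). Leaving out replicate 1 of the wild-type group raised the 4 to 6, and leaving out its replicate 2 or 3 or KO-labelled replicate 3 lowered them to 2. In the thioredoxin and peroxiredoxin list 3 of 17 were called higher and 0 lower at 5 months, Sesn1 (0.51), Prdx6 (0.28) and Sesn3 (0.22). The 3 became 2 without KO-labelled replicate 1, 0 without KO-labelled replicate 2, and 1 when KO-labelled replicate 3 or either of wild-type replicates 2 and 3 was left out.

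At 2 months 3 of this list were called higher and 1 lower, with Msrb1 (0.44), Prdx4 (0.42) and Prdx6 (0.36) higher. The 3 stood without wild-type replicate 1, became 1 without PPARγ-KO replicate 1, and 0 without any 1 of the other 4 libraries. Slc39a5, a zinc transporter, had a log2 difference of -1.75 at 2 months and Pex11a, a peroxisome division factor, of -1.14, both called lower by edgeR. Without any 1 library other than wild-type replicate 1, no gene of either list was called lower.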
